A study of Mus musculus with 64 samples.

Results

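The nuclear genes of respiratory complex I were followed in the hearts of mice that lack the desmosomal protein plakophilin-2 in their cardiomyocytes and that did or did not receive Pkp2 from an adeno-associated virus vector. They were taken as every gene of the count table whose symbol starts with Nduf, without names that hold -ps, which gave 45 of 39152 named genes. The 45 hold structural subunits of the complex, assembly factors and 2 genes classed apart from both as a paralog or extra copy, Ndufa4 and Ndufa4l2. Of the 45 genes, 43 passed the filter on low counts. Ndufa4 was above 0 in 5 of 64 libraries (at most 10.4 CPM, counts scaled to library size) and Ndufa9 in 6 of 64 (at most 4.93 CPM), both were listed at 0 in the others, and neither was tested. Both encode subunits known to be abundant in heart mitochondria, so the listed 0 is not read as a lack of their RNA, and whether the quantification could assign reads to them was not tested. The subunit Ndufb1 and the assembly factor Ndufaf8 had no row under those names.

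Complex I is the entry point of electrons into the mitochondrial respiratory chain. Its N module oxidises NADH, its Q module passes the electrons to ubiquinone, and its proton-pumping membrane arm, made up of proximal and distal parts, uses the energy to move protons out of the matrix, while assembly factors build the enzyme and then leave it. The adult heart draws nearly all of its ATP from oxidative phosphorylation, and its cardiomyocytes are filled with mitochondria, so these transcripts are abundant in ventricular muscle.

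RNA of 32 C57BL6 mice was sequenced, with 1 library from each right ventricle (RV) and 1 from each left ventricle (LV). WT animals (labelled WT_HBSS, 9) carried floxed Pkp2 alleles without Cre and received the vehicle HBSS, and Pkp2-cKO animals (PKP2_HBSS, 4, here cKO) carried the same homozygous floxed alleles with a tamoxifen-inducible Cre under a cardiac myosin heavy chain promoter, so that Pkp2 was deleted in cardiomyocytes and in no other cell type, and received HBSS too. The vector groups were cKO animals given AAV9:mPkp2 once into the retro-orbital sinus: AAV_3E13 (PKP2-m3e13, 8 animals, 3e+13 vector genomes per kg), AAV_1E14 (PKP2-m1e14, 5 animals, 1e+14) and AAV_1E14_2.5wk (PKP2-m1e14-2.5wk, 6 animals, 1e+14). AAV_3E13 and AAV_1E14 were dosed 1 week before tamoxifen according to the labels, the study's own descriptions differ on whether that dose preceded or followed it, and AAV_1E14_2.5wk was dosed 2.5 weeks after tamoxifen. Pkp2 was deleted in adult animals, and hearts were collected about a year later, except that untreated cKO hearts were taken at an earlier age than the rest, so in every comparison with cKO genotype or vector and age cannot be told apart.

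Libraries held between 7962770 and 14554600 counts (median 11462250), of which mitochondrially encoded genes, set aside before normalisation, took 16.6% to 40.2%. Animals are named by group and the number in the labels. Pkp2 lay at 125 to 187 CPM in WT RV and at 37.9 to 98.6 CPM in cKO RV, and the vector groups reached 155 to 3795 CPM there. Summed markers of cardiomyocytes were high in every library (at least 36389 CPM), and those of white adipocytes were at or near 0 (at most 3.05 CPM). The libraries of AAV_1E14_2.5wk_5814 did not match in sex-linked genes, with Xist at 3075 CPM and 4 Y-linked genes at 0 in its LV library and at 262 and 296 CPM in its RV library. In WT RV, the library of WT_5819 held 660 CPM of 4 atrial markers together against at most 82.1 in the other 8. The LV library of AAV_1E14_2.5wk_5810 held 1224 CPM of these markers, the most of all libraries, and the lowest mitochondrial share (16.6%). That animal was not left out of any test. Among cKO animals, cKO_2006 and cKO_2052 had the lowest levels of the Nduf genes in both ventricles. Apart from AAV_1E14_2.5wk_5810, results that changed without one of these libraries are given with that value.

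Promoter sequences were looked at because most of the 45 genes moved together in the comparisons below. RefSeq's promoter table (GRCm38.p6, 250 bases before to 50 after each start) held 39 of the 45 genes, and Ndufa2, Ndufa4l2, Ndufaf6, Ndufb9 and Ndufs1 were among those not matched. The palindromic element of NRF1, a factor that binds the promoters of many respiratory chain genes, was searched on both strands as GCGCA and GCGC with any 1 base between them, and 9 of the 39 (23.1%) held it against 5.19% of 27025 genes in the table. The YY1 element (AAGATGGC) was present in 7 of 39 (17.9%) against 3.19%, the core of the ETS family that includes GABPA (CCGGAAG) in 5 of 39 (12.8%) against 9.93%, and the element of the estrogen-related receptors (TCAAGGTCA) in 0 of 39 against 126 of 27025 genes. The windows below show the NRF1 element in 4 genes that the results return to, with the element in capitals, read on the gene's strand and located by exact match in GRCm39. For Ndufa5 the element lies 26 bases before 1 of 2 listed starts (chr6:24527696-24527725, minus strand, in an annotated Ndufa5 exon). The other Ndufa5 start has the element 190 bases before it. For Ndufs6 it lies 16 bases before the start (chr13:73476598-73476627, minus strand, in exons of Ndufs6 and Mrpl36). For Ndufs5 it lies 98 before (chr4:123612058-123612087, minus strand, in no annotated exon). For Ndufaf4 it lies 113 before (chr4:24897960-24897989, plus strand, in an exon of Gm46848). Distances are counted to the first base of the element. A match of letters describes the sequence and shows no binding.
Ndufa5: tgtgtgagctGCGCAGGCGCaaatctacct
Ndufs6: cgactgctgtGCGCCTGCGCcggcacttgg
Ndufs5: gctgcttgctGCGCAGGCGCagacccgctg
Ndufaf4: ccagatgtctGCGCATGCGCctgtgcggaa

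In healthy ventricles the Nduf genes differed widely in level. On the TPM scale, which takes transcript length into account, the highest in WT RV were Ndufs5, a small membrane arm subunit facing the intermembrane space, at 900 ± 180 TPM (SD, n = 9), Ndufs6, a zinc-binding subunit of the N module, at 855 ± 113, and Ndufc1, a small membrane arm subunit, at 752 ± 137. These neighbours lay within their spread of each other. Among subunits of other roles, Ndufb8 was the highest of the distal arm at 707 ± 125 TPM and Ndufa5 the highest accessory subunit of the Q module at 676 ± 125. The highest core N subunit was Ndufv1, which binds NADH, at 533 ± 52.4, below accessory subunits such as Ndufa12 at 652 and Ndufa6 at 616 ± 81.4. Assembly factors were much less abundant: the highest, Ndufaf4, lay at 61.3 ± 12.4 TPM in WT RV, and Ndufa4l2, a hypoxia-inducible relative of Ndufa4 that is not an ordinary complex I subunit, at 11.5 ± 3.18. In WT LV the same 3 genes led, with Ndufs5 at 1323 ± 254, Ndufs6 at 908 and Ndufc1 at 887 TPM. The 45 genes were spread over 16 chromosomes, with 2 on X and at most 6 on any one.

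Already in WT, the RV held less Nduf RNA than the LV. Between the ventricles of the same 9 animals, 20 of 43 genes were lower in the RV and 1 was higher. Of all genes tested, 15.4% were called lower and 1597 genes higher. Between the ventricles 5 Nduf genes did not overlap. How many of all genes tested did not overlap was not counted, here or in later comparisons. The median log2 difference (RV minus LV) was −0.25. The clearest were Ndufa10, a membrane arm subunit of kinase-like fold (−0.57 ± 0.08 SE, adjusted p = 5.21e-05), Ndufv2, an iron-sulfur core N subunit (−0.56, adjusted p = 6.76e-05), and Ndufab1, the mitochondrial acyl carrier protein (−0.46, adjusted p = 0.000176). Ndufs5 (−0.60) and Ndufs1 (−0.51, adjusted p = 0.000257), the largest iron-sulfur subunit, followed. Ndufaf2, an assembly factor related to Ndufa12, showed the largest fall (−1.18, adjusted p = 0.0247), and the exception was Ndufa13, also known as GRIM-19, which was higher in the RV by 0.50 (adjusted p = 0.0120, or 0.0843 with all groups in 1 fit). With the animal as a replicate block, 21 genes passed in place of 21 without it. Most cardiomyocyte markers moved the same way, with 10 of 12 lower in the RV (median −0.36), while Ckm was higher by 0.71 (adjusted p = 0.00817). The part of these markers in the result was not tested. The call of Ndufa10 was lost once effective transcript length entered the fit (−0.15, adjusted p = 0.234).

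cKO ventricles held less RNA of nearly the whole set than WT ventricles. In cKO RV, 39 of 43 genes were lower than in WT and 1 was higher. Of the 14150 genes tested, 20.3% were called lower and 3112 genes higher. The median log2 fold change was −0.99 over the 43 genes against 0.02 over all genes, with a range of −1.81 to 0.76, and 23 genes did not overlap between the groups. In cKO LV, 42 of 43 were lower and 0 higher, where 23% of 13846 genes were called lower, the median was −1.39 against 0.05, and 38 did not overlap. The 39 genes lower in the RV were all lower in the LV too. Both comparisons hold the difference in age given above.

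**Figure D1:**
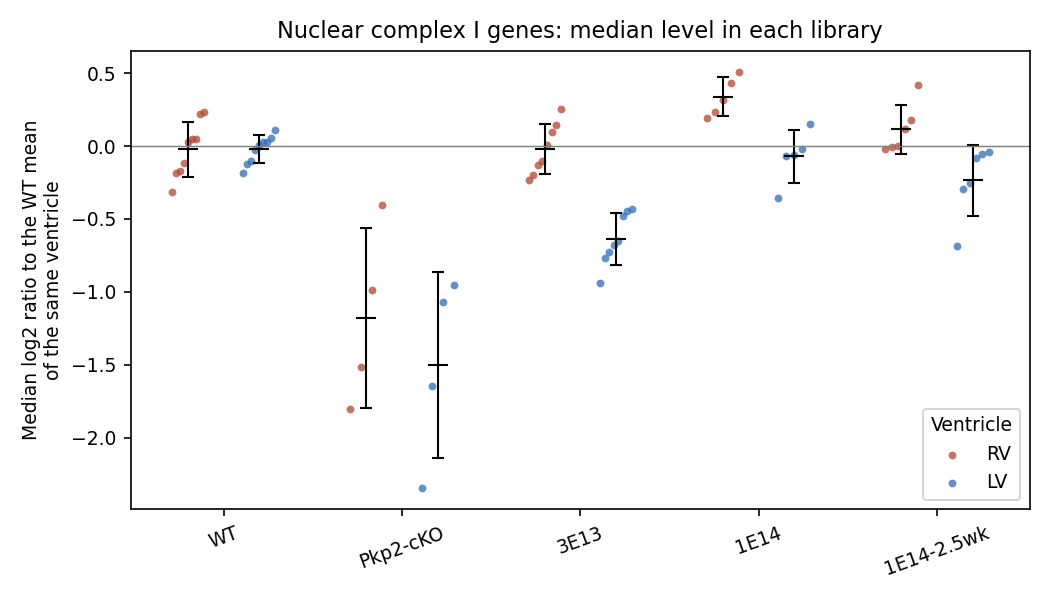
Median over the Nduf genes of the log2 ratio of CPM to the WT mean of the same ventricle, 1 point per library, for the 5 groups in RV and LV (the vector groups marked 3E13, 1E14 and 1E14-2.5wk), with the group mean and SD. The 4 cKO libraries ran from −1.80 to −0.41 in the RV and from −2.35 to −0.95 in the LV, AAV_3E13 lay near 0 in the RV and at a mean of −0.64 in the LV, and AAV_1E14 lay above 0 in all 5 RV libraries.

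The fall was uneven between animals. The median log2 ratio to the WT mean was −1.80, −1.52, −0.41 and −0.99 in the RV of cKO_2006, cKO_2052, cKO_3213 and cKO_3217, and −2.35, −1.65, −0.95 and −1.07 in their LV. Animal cKO_3213 was the least affected in both ventricles, and its RV came closest to the WT libraries, which ran from −0.32 to 0.24. Of the cKO animals, cKO_3213 also had the highest Pkp2 in both ventricles (98.6 CPM in the RV and 87.9 in the LV). Its summed cardiomyocyte markers were the highest too (98935 and 80905 CPM). The lowest Pkp2 in the RV was that of cKO_3217 (37.9 CPM). Its LV held 64.0 CPM, and its markers summed to 50310 CPM in the RV and 76766 in the LV. In cKO_2052 Pkp2 (59.8 and 81.7 CPM) and the markers (67086 and 80218 CPM) were higher than that, although its Nduf ratios were lower. The more and the less affected animals differed in sex-linked genes as well. Xist, expressed in females, was at 4540 to 5661 CPM in the libraries of cKO_2006 and cKO_2052, the most affected animals, and at 0.438 to 3.29 CPM in those of cKO_3213 and cKO_3217, in which 4 Y-linked genes summed to 208 to 314 CPM. With these 4 animals sex and individual cannot be told apart, and the part of Pkp2 level and cardiomyocyte marker level was not tested. WT held animals of both kinds, and the RV ratios of those with high Xist (−0.32 to 0.22) overlapped those of the others (−0.17 to 0.24). Leaving out each cKO animal in turn left 32 to 40 genes called in the RV and 40 or 41 in the LV.

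Every structural part of the enzyme took part. In the N module, all 3 core subunits fell in both ventricles, with a median of −1.43 in the RV and −1.89 in the LV, and so did all 5 accessory subunits (−0.98 and −1.29). In the Q module, all 4 core subunits fell (−1.08 and −1.65), as did the 3 accessory subunits that were tested (−1.38 and −1.37). In the membrane arm, all 9 proximal subunits fell (−1.02 and −1.42), and of 11 distal subunits 10 fell in the RV and 11 in the LV (−0.99 and −1.51). Of 7 assembly factors, 5 fell in the RV and all 7 in the LV (−0.82 and −1.02). Those that did not pass in the RV were the methyltransferase Ndufaf7 (−0.55, adjusted p = 0.0570) and Ndufaf2 (−0.61, adjusted p = 0.456), and with them the distal subunit Ndufb4 (−0.37, adjusted p = 0.398).

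Ndufa5, in the peripheral arm, had the smallest p in cKO RV (GRCm39 chr6:24518659-24528012, minus strand). It stood at 24.3, 27.4, 59.0 and 31.4 CPM in cKO_2006, cKO_2052, cKO_3213 and cKO_3217, and WT RV ran from 104 through a median of 130 to 149 CPM. All 4 cKO libraries lay below all 9 WT libraries, and the log2 fold change was −1.81 ± 0.20 (SE, adjusted p = 7.97e-06). In the LV the same animals gave 25.7, 38.1, 61.1 and 47.7 CPM, again below every WT library (115 to 167 CPM), where it fell by 1.61 ± 0.19 on the log2 scale (adjusted p = 1.22e-05).

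Ndufs1, the core N subunit that carries electrons along its iron-sulfur clusters (chr1:63182058-63216236, minus strand), gave the same order of animals. In cKO RV it stood at 127, 144, 271 and 181 CPM against 393, 477 and 618 (lowest, median and highest) in WT. The groups did not overlap, and it fell by 1.44 ± 0.19 on the log2 scale (adjusted p = 3.04e-05). In cKO LV it stood at 99.7, 143, 257 and 244 CPM against 575, 739 and 815 in WT, with a log2 fold change of −1.96 ± 0.22 (adjusted p = 8.76e-06), the largest fall of any Nduf gene in that ventricle.

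Ndufs6, the zinc-binding N module subunit (chr13:73464968-73476661, minus strand), was at 26.7, 40.5, 89.2 and 52.3 CPM in cKO RV and at 157, 173 and 208 in WT RV. No cKO library reached the WT range, and the log2 fold change was −1.71 ± 0.23 (adjusted p = 4.11e-05). In cKO LV it was at 24.8, 38.5, 91.9 and 66.8 CPM, below the 153 to 212 CPM of WT LV. Other genes with small p in cKO RV were the N module subunit Ndufa12 (−1.40 ± 0.20, adjusted p = 5.22e-05) and Ndufc1 (−1.32 ± 0.20, adjusted p = 9.79e-05), and Ndufa13 showed the largest fall (−1.81 ± 0.28, adjusted p = 0.000122). In cKO LV they were Ndufv2 (−1.89 ± 0.20, adjusted p = 5.31e-06), Ndufa12 (−1.74), the distal arm subunit Ndufb10 (−1.60) and Ndufab1 (−1.22).

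Ndufa4l2 (chr10:127350818-127353038, plus strand) was the exception. In cKO RV it stood at 9.21, 9.21, 6.71 and 13.2 CPM against 3.02, 6.11 and 8.33 in WT. The groups overlapped through cKO_3213, and the log2 fold change was 0.76 ± 0.24 (adjusted p = 0.0200). Without cKO_3217 it was 0.57 (adjusted p = 0.104), and with effective length in the fit 0.54 (adjusted p = 0.107). In the LV, at 3.27, 7.24, 3.50 and 9.44 CPM against 4.33, 6.40 and 10.1, it gave −0.15 and did not pass.

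**Figure D2:**
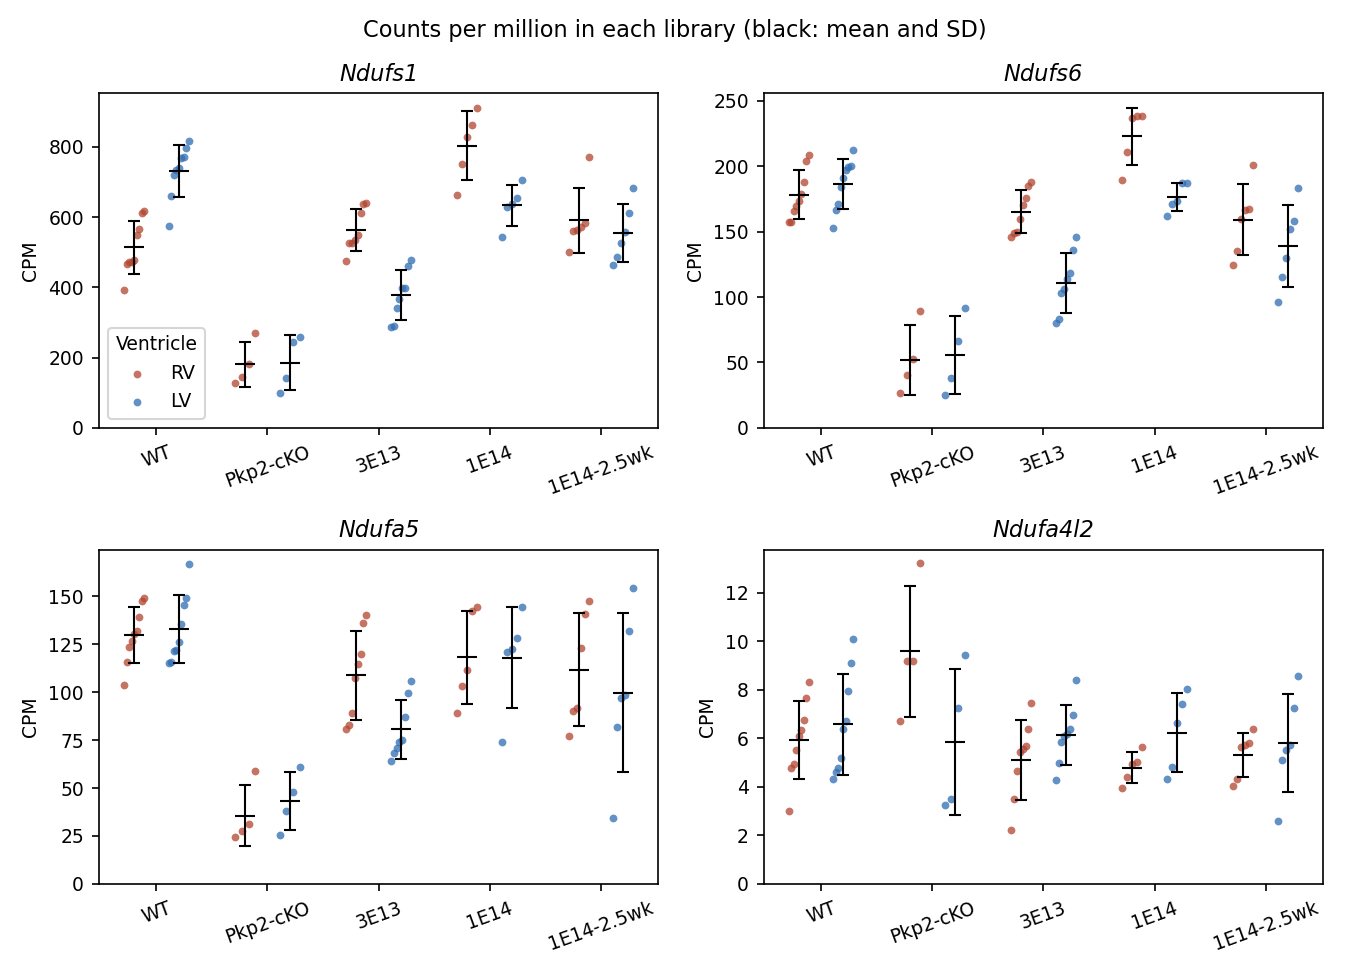
CPM of Ndufa5, Ndufs1, Ndufs6 and Ndufa4l2 in every library of the 5 groups, RV and LV side by side, with group means and SD. The 4 cKO libraries of Ndufa5, Ndufs1 and Ndufs6 lie below every WT library of the same ventricle, and Ndufa4l2 overlaps between cKO and WT in both ventricles.

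Other genes of the pathway moved in the same direction in cKO. Of 12 tested assembly factors of complex I without an Nduf name (15 listed), 8 were lower in the RV and 11 in the LV, among them Ecsit (−1.07 and −1.33), and Acad9, which also works in fatty acid oxidation, gave −0.07 in the RV (adjusted p = 0.794) and −0.97 in the LV (adjusted p = 0.00170). Of the 7 subunits encoded in mitochondrial DNA, 6 were lower in the RV (median −0.98) and 2 in the LV (−0.60), with mt-Nd6 and mt-Nd3 lower in both (mt-Nd6 −1.86 and −1.13, mt-Nd3 −0.86 and −0.98). Of 10 transcriptional regulators of mitochondrial genes, 7 were lower in each ventricle. Esrrg, a nuclear receptor of mitochondrial genes in muscle, gave −1.66 and −2.20, and Ppargc1a, the coactivator PGC-1α, −1.62 and −1.86. Nrf1 gave 0.06 in the RV (adjusted p = 0.697) and was higher by 0.45 in the LV (adjusted p = 0.0202). Among nuclear genes of complexes II to V, 38 of 46 were lower in the RV and 1 was higher (median −1.06), and 43 of 47 were lower in the LV (−1.50).

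Cell type markers moved with the fall. The 12 cardiomyocyte markers summed to 37271 to 98935 CPM in cKO RV against 109240 to 158910 in WT RV, with 11 of 12 lower in each ventricle (median −1.12 in the RV and −1.42 in the LV). Fibroblast markers summed to 6306 to 12845 CPM in cKO RV against 856 to 1537 in WT RV, and macrophage markers to 1088 to 2475 CPM against 331 to 459. The fibroblast markers did not move as one, with 5 of 7 higher in the RV and 4 of 7 in the LV. The collagen gene Col1a1 gave 4.96 and 4.40, while Dcn (0.01 and −0.43) and Pdgfra (0.15 and 0.35) were called in neither ventricle. In ventricular tissue, fewer cardiomyocytes and less Nduf RNA per cardiomyocyte cannot be told apart. The summed CPM of the Nduf genes as a percent of that of the cardiomyocyte markers was 2.19% to 4.18% in cKO RV and 2.93% to 4.43% in WT RV, which overlapped. In the LV it was 1.92% to 3.23% against 3.19% to 3.78%, which overlapped at the edge.

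**Figure D3:**
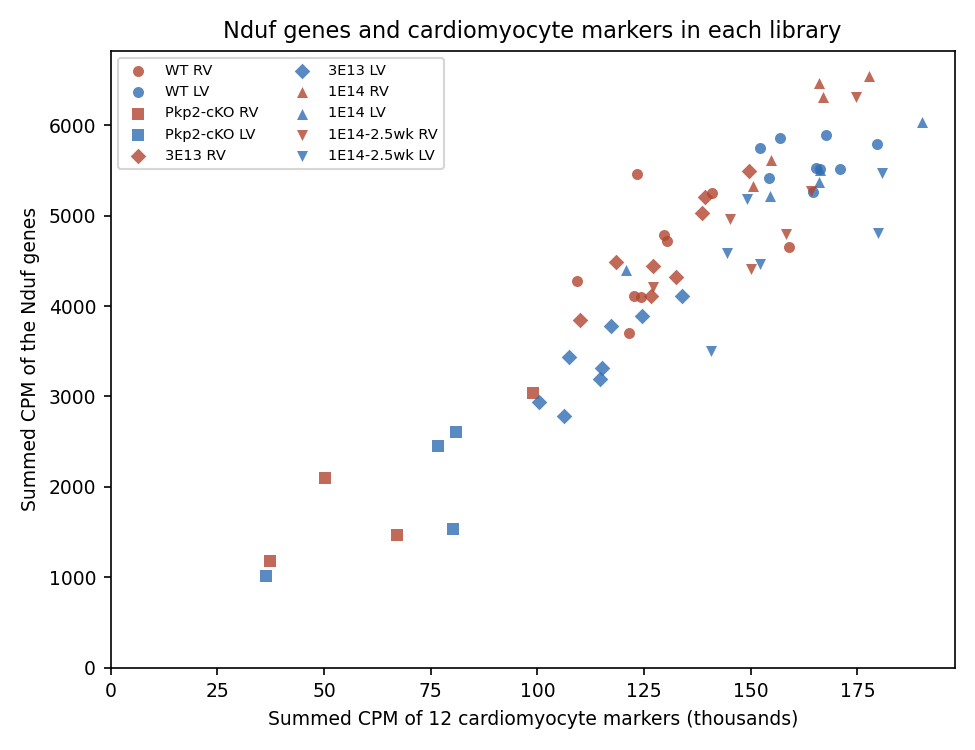
Summed CPM of the Nduf genes against summed CPM of 12 cardiomyocyte markers, 1 point per library, with the colour for the ventricle and the shape for the group. Both sums were low in the cKO libraries, and the Nduf genes amounted to between 1.92% and 4.43% of the markers' CPM over the cKO and WT libraries.

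Whether the early low dose kept these genes at WT levels was asked next. In AAV_3E13 RV, 3 of 43 genes were higher than in WT and 2 lower, where 11.8% of the 13246 genes tested were called higher and 1326 genes lower, the median was 0.04 and no gene separated the groups. In place of these 5 genes, limma on log2(TPM + 1) called 15 and the fit with all groups called 1, and the summed TPM of the Nduf genes was 13279 ± 1782 in WT RV (SD, n = 9) and 16005 ± 1336 in AAV_3E13 RV (n = 8). Ndufa13 was lower (−0.66 ± 0.14, adjusted p = 0.00311), as was the core Q subunit Ndufs7 (−0.38, adjusted p = 0.0194), and Ndufs5 (0.44, adjusted p = 0.00822), the distal subunit Ndufb5 (0.40, adjusted p = 0.0220) and Ndufc1 (0.28, adjusted p = 0.0473) were higher. The largest estimate upward, Ndufaf2 at 0.78, did not pass (adjusted p = 0.199). Ndufc1 no longer passed without WT_5819 (0.24, adjusted p = 0.0878), and Ndufs7 did not with effective length in the fit (−0.19, adjusted p = 0.153). In the same libraries fibroblast markers were higher in 7 of 7 (median 0.83), endothelial markers lower in 4 of 6 (−0.28), and of 12 cardiomyocyte markers 2 were higher and 3 lower (0.04), and their part in the result was not tested.

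In AAV_3E13 LV the picture differed. There 37 of 43 genes were lower than in WT and 0 higher, where 19.2% of all genes tested were called lower. All 43 log2 fold changes were below 0, the median was −0.63 with a range of −1.02 to −0.01, and 16 genes did not overlap. Ndufv2 showed the largest fall (−1.02 ± 0.12, adjusted p = 2.87e-06). Ndufb5 (−0.76 ± 0.08, adjusted p = 1.30e-06), Ndufs1 (−0.93 ± 0.10, adjusted p = 1.98e-06), the distal subunit Ndufb6 (−0.80) and the core Q subunit Ndufs3 (−0.78) had the smallest p with it. All 3 core N, 3 of 4 core Q, 4 of 5 N accessory, 3 of 3 tested Q accessory, 8 of 9 proximal, 10 of 11 distal subunits and 6 of 7 assembly factors fell, and Ndufa13 was at −0.01 (adjusted p = 0.979). Ndufs1 ran from 288 through a median of 383 to 479 CPM in AAV_3E13 LV, below all WT LV libraries, and from 475 through 542 to 639 in AAV_3E13 RV, within reach of WT RV. Cardiomyocyte markers fell in the same libraries, 11 of 12 with a median of −0.56, fibroblast markers rose in 6 of 7, and the Nduf genes amounted to 2.62% to 3.22% of the cardiomyocyte marker CPM against 3.19% to 3.78% in WT LV. The part of these markers in the result was not tested.

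At the early high dose the RV exceeded WT. In AAV_1E14 RV, 23 of 43 genes were higher and 2 lower. Of the 13488 genes tested, 15.4% were called higher and 1904 genes lower. The median was 0.33 against −0.06 over all genes, with 9 Nduf genes not overlapping. Ndufb5 rose the most, from 150 ± 28.4 CPM in WT (SD, n = 9) to 272 ± 36.3 (n = 5), and its log2 fold change was 0.85 ± 0.12 (adjusted p = 0.000333). Ndufs1 stood at 911, 662, 827, 861 and 752 CPM in AAV_1E14_2034, AAV_1E14_2043, AAV_1E14_5726, AAV_1E14_5822 and AAV_1E14_5825, all above the highest WT RV library, and gave 0.64 ± 0.11 (adjusted p = 0.000711). Ndufs5 (0.65) and Ndufs3 (0.68) rose as well. Ndufs6 stood at 238, 190, 236, 239 and 211 CPM, and only AAV_1E14_2043 lay in the WT range. Ndufa5, at 144, 89.2, 103, 142 and 111 CPM, overlapped WT.

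By role, all 3 core N, 2 of 4 core Q, 3 of 5 N accessory, 1 of 3 Q accessory, 4 of 9 proximal, 8 of 11 distal subunits and 2 of 7 assembly factors were higher in AAV_1E14 RV. Ndufa13 (−0.75 ± 0.14, adjusted p = 0.00127) and Ndufb7, a distal subunit facing the intermembrane space (−0.47, adjusted p = 0.00793), were lower, and Ndufb7 no longer passed with effective length in the fit (−0.29, adjusted p = 0.106). Cardiomyocyte markers rose in the same libraries, 10 of 12 with 1 lower (median 0.39), and endothelial markers fell in 6 of 6. The Nduf genes amounted to 3.54% to 3.89% of the cardiomyocyte marker CPM, inside the WT RV range. Genes of complexes II to V were higher in 28 of 46 (median 0.43).

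In AAV_1E14 LV no Nduf gene passed against WT with edgeR, where 0.0075% of all genes tested (1 gene) were called in either direction. The median was −0.07, the range ran from −0.39 (Ndufaf5, a hydroxylase of Ndufs7, adjusted p = 0.928) to 0.24 (Ndufaf3, adjusted p = 0.936), and 2 of 43 had an unadjusted p under 0.05. Ndufs1 stood at 705, 542, 629, 653 and 636 CPM there, and all but AAV_1E14_2043 lay within the WT LV range.

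In the group dosed after tamoxifen, AAV_1E14_2.5wk RV had 11 of 43 genes higher than WT and 2 lower. Of the 13452 genes tested, 17.8% were called higher and 2489 genes lower. The median of the Nduf genes was 0.17, and 3 of them did not overlap. Ndufs5 (0.54, adjusted p = 0.00101), the membrane arm subunit Ndufa11 (0.53, adjusted p = 0.00194), Ndufb5 (0.51, adjusted p = 0.00386) and Ndufa10 (0.45, adjusted p = 0.00415) were higher. Ndufa10 was at 0.08 with effective length in the fit (adjusted p = 0.619). Ndufa13 (−0.67, adjusted p = 0.00101) and Ndufb7 (−0.48, adjusted p = 0.0177) were again lower, and Ndufb7 was at −0.40 and just missed the threshold without AAV_1E14_2.5wk_5814. Ndufaf2 gave 1.00 and did not pass (adjusted p = 0.0745). Markers moved in the same RV libraries, with 5 of 12 cardiomyocyte markers higher and 2 lower (median 0.25), 6 of 7 fibroblast markers higher (1.07) and 6 of 6 endothelial markers lower (−0.56), and their part in the result was not tested. In its LV, 3 of 43 were lower and 0 higher, where 0.633% of all genes tested were called lower: Ndufs3 (−0.37 ± 0.08, adjusted p = 0.0278), Ndufc1 (−0.47 ± 0.11, adjusted p = 0.0449) and Ndufs1 (−0.38 ± 0.09, adjusted p = 0.0471). The median was −0.20, 17 of 43 had an unadjusted p under 0.05, and 7 genes were called without AAV_1E14_2.5wk_5814 and 0 with limma on TPM. AAV_1E14_2.5wk_5810 had the lowest median ratio to WT in this LV group (−0.68). Of 12 cardiomyocyte markers 1 was lower (median −0.08), and of 7 fibroblast markers 1 was higher (0.65). The Nduf genes amounted to 2.49% to 3.48% of the cardiomyocyte marker CPM against 3.19% to 3.78% in WT LV. The part of these markers in the LV result was not tested.

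Ndufa13 thus stood below WT in the RV of all vector groups while most other Nduf genes did not. It lay at 72.9 ± 12.2 CPM in WT RV (n = 9) and at 46.1 ± 11.4, 43.5 ± 8.14 and 45.8 ± 9.86 CPM in AAV_3E13, AAV_1E14 and AAV_1E14_2.5wk. In the LV it lay at a median of 51.1 CPM in WT (28.1 to 78.3) and at medians of 50.9, 61.7 and 56.1 CPM in the vector groups, which overlapped it. These comparisons share the WT libraries.

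**Figure D4:**
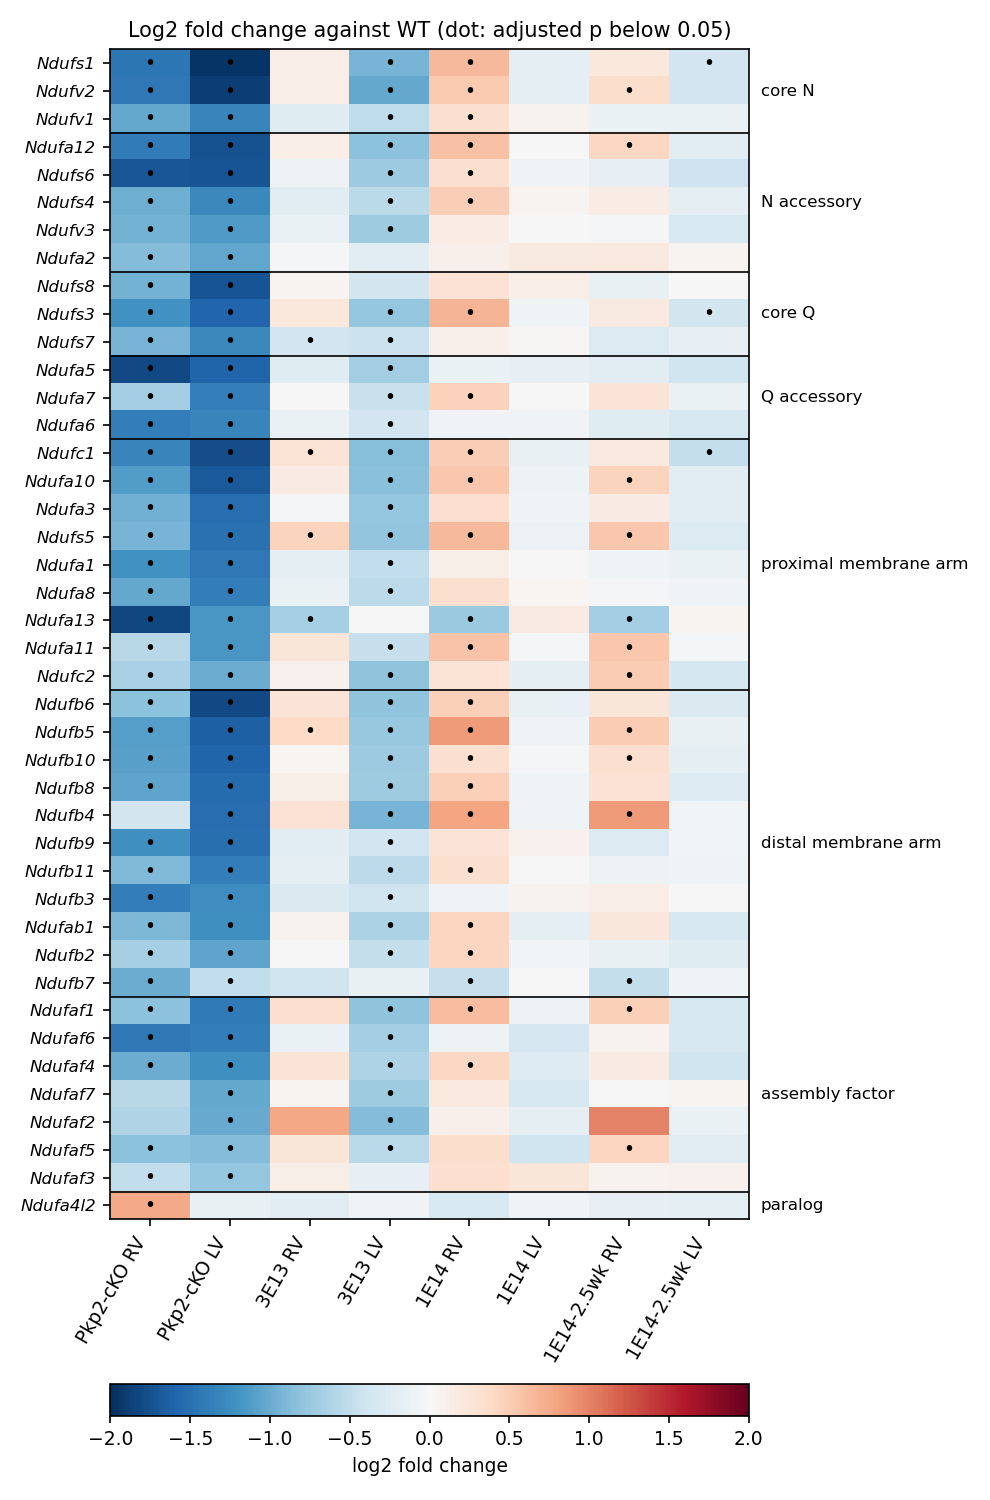
Log2 fold change against WT of the Nduf genes that were tested (1 is not shown), ordered by role, in the 4 knockout groups and both ventricles. Nearly all genes are negative in both cKO columns and in AAV_3E13 LV, most are positive in AAV_1E14 RV, and Ndufa13 is negative in the RV column of all 4 groups.

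Set against untreated cKO, all vector groups had more Nduf RNA, with the age difference and the same 4 cKO animals in each comparison. In the RV, 38 of 43 genes were higher in AAV_3E13 (median 1.07, 23 not overlapping), 40 in AAV_1E14 (1.38, 39 not overlapping) and 38 in AAV_1E14_2.5wk (1.18, 33 not overlapping), where 19.4%, 24.2% and 22.6% of all genes tested were called higher. Ndufs1 was higher by 1.59 ± 0.18 (adjusted p = 2.70e-05), 2.14 ± 0.22 (adjusted p = 3.76e-05) and 1.68 ± 0.21 (adjusted p = 9.72e-05). Ndufs3 followed with 1.42, 1.94 and 1.42 and Ndufc1 with 1.62, 1.87 and 1.56. Ndufa12 was higher by 2.04 in AAV_1E14 and by 1.85 in AAV_1E14_2.5wk, and the assembly factor Ndufaf4, which binds Ndufaf3, by 1.26 in AAV_3E13 and 1.19 in AAV_1E14_2.5wk. Cardiomyocyte markers were higher in the same comparisons, 10, 11 and 10 of 12 (medians 1.00, 1.46 and 1.30). Fibroblast markers were lower in 4 of 7 in each (−2.15, −4.05 and −1.86), while the fibroblast marker Dcn was higher in AAV_3E13 (0.83, adjusted p = 0.0444). Macrophage markers were lower in 5, 6 and 6 of the 6 tested (−1.70, −2.14 and −1.80). The part of these markers in the result was not tested.

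Ndufa4l2 was the 1 Nduf gene lower than cKO in each of those 3 RV comparisons, with log2 fold changes of −0.95 (adjusted p = 0.0136), −1.01 (adjusted p = 0.00473) and −0.88 (adjusted p = 0.00635). Over all genes tested, 3183, 3618 and 3510 were called lower. Without cKO_3217 the first was −0.77 (adjusted p = 0.0621), and on the TPM scale with limma none of the 3 passed (adjusted p = 0.404, 0.0705 and 0.260).

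In the LV, 21 of 43 genes were higher than cKO in AAV_3E13 (median 0.78, 13 not overlapping), 37 in AAV_1E14 (1.35, 36 not overlapping) and 36 in AAV_1E14_2.5wk (1.22, 28 not overlapping), where 8.58%, 17.3% and 17.4% of all genes tested were called higher. In AAV_3E13 LV the count was 12 without cKO_2006 and 11 without cKO_2052. Ndufs1 was higher by 0.98 ± 0.24 (adjusted p = 0.0132), 1.73 ± 0.27 (adjusted p = 0.00129) and 1.57 ± 0.26 (adjusted p = 0.00145). Ndufb10 had the smallest p in AAV_3E13 (0.84 ± 0.17, adjusted p = 0.00592) and Ndufa12 in AAV_1E14 (1.70 ± 0.26, adjusted p = 0.00122). None of the 7 assembly factors passed in AAV_3E13 LV with edgeR (median 0.55), while 4 of 7 did in AAV_1E14_2.5wk LV. The core Q subunit Ndufs8 gave the largest estimates in the LV, 1.32 (adjusted p = 0.0706), 1.84 and 1.72. There too cardiomyocyte markers were higher, 5, 10 and 10 of 12 (medians 0.76, 1.34 and 1.21). Fibroblast markers were lower in 4 of 7 in each (−1.97, −3.62 and −2.31), while Dcn was again higher in AAV_3E13 (1.08, adjusted p = 0.00629). Macrophage markers were lower in 5, 6 and 6 of 6 (−1.11, −1.63 and −1.46). The part of all these markers in the result was not tested.

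**Figure D5:**
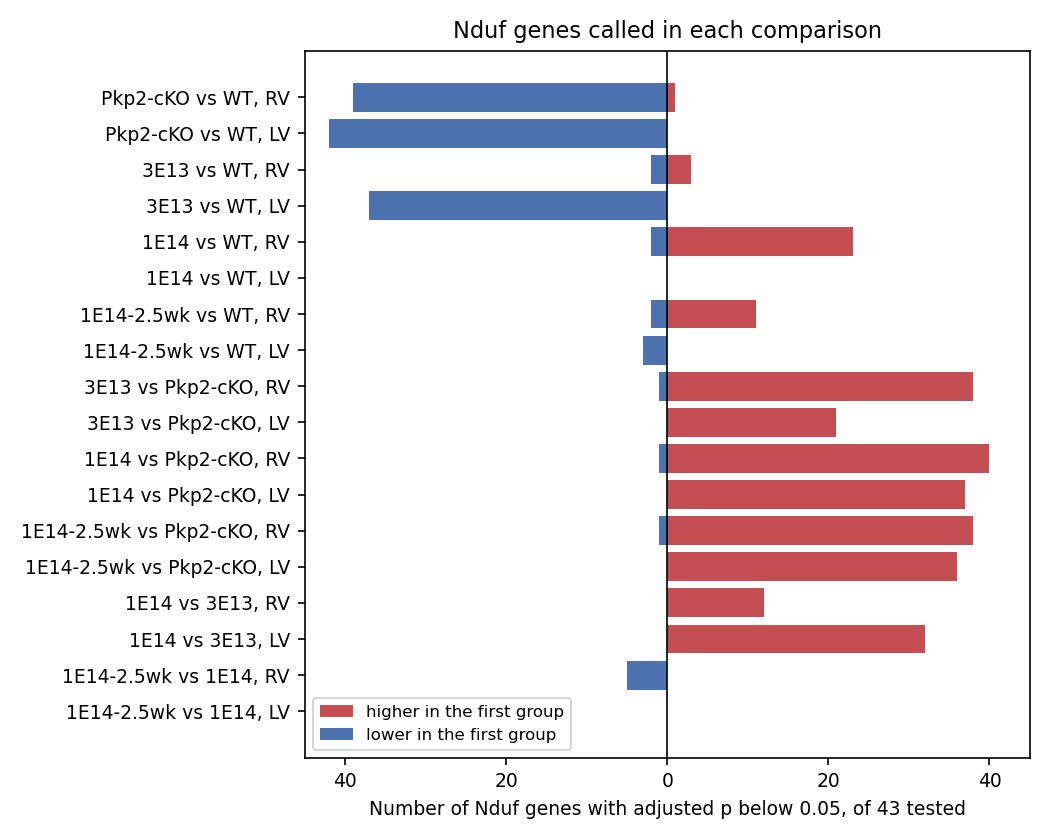
Number of the 43 tested Nduf genes called higher and lower (edgeR, adjusted p at 0.05) in each comparison. In comparisons with WT, calls are mostly lower in cKO and in AAV_3E13 LV (39, 42 and 37 of 43) and mostly higher in AAV_1E14 RV (23 of 43), with 0 in AAV_1E14 LV.

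The doses were compared directly. In the LV, 32 of 43 genes were higher in AAV_1E14 than in AAV_3E13 and 0 lower, where 10.8% of all genes tested were called higher, with a median of 0.55 and 15 genes not overlapping, and without AAV_1E14_2034 20 genes were called. Ndufb5 (0.69 ± 0.09, adjusted p = 0.000481), Ndufv1 (0.57 ± 0.08, adjusted p = 0.000486), Ndufs3 (0.69), Ndufb6 (0.64) and the proximal subunit Ndufa8 (0.55) had the smallest p, and Ndufb4 gave the largest rise (0.83, adjusted p = 0.0411), which did not pass without AAV_1E14_2034 (0.59, adjusted p = 0.165). All 3 core N and all 5 N accessory subunits were higher, and 1 of 7 assembly factors was. In the RV, 12 were higher and 0 lower, where 5.02% of all genes tested were called higher, with a median of 0.31 and 4 not overlapping, led by Ndufv1 (0.53 ± 0.10, adjusted p = 0.00557), Ndufs1 (0.49, adjusted p = 0.00557) and Ndufs4, an N module subunit (0.71, adjusted p = 0.00661). The RV count fell to 6 without AAV_1E14_2034, to 5 without AAV_1E14_5726 and to 7 without AAV_1E14_5822. Cardiomyocyte markers were higher in 10 of 12 (LV) and 4 of 12 (RV), fibroblast markers lower in 6 of 7 in both, and their part in the result was not tested.

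The time of dosing was compared at the high dose. AAV_1E14_2.5wk RV had 5 of 43 genes lower than AAV_1E14 RV and 0 higher, where 3.95% of all genes tested were called lower, with a median of −0.17. They were Ndufs3 (−0.50 ± 0.10, adjusted p = 0.0104), the distal subunit Ndufb2 (−0.57 ± 0.13, adjusted p = 0.0200), Ndufs6 (−0.47 ± 0.11, adjusted p = 0.0221), Ndufv1 (−0.43 ± 0.10, adjusted p = 0.0242) and Ndufs1 (−0.42 ± 0.11, adjusted p = 0.0313). The count was 3 without AAV_1E14_2.5wk_5814, AAV_1E14_2034 or AAV_1E14_5726, 2 without AAV_1E14_5822 and 8 without AAV_1E14_2043. Fibroblast markers were higher in 4 of 7 (median 1.32) and cardiomyocyte markers lower in 3 of 12 (−0.13) in the same comparison, and their part in the result was not tested. In the LV edgeR called 0 Nduf genes, where 0% of 13234 genes tested were called, with a median of −0.14, and 4 of 43 had an unadjusted p under 0.05.

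Whether the ventricles differed in their response was tested as a contrast of contrasts, the log2 fold change against WT in the RV minus that in the LV. For AAV_3E13, 27 of 43 genes were higher in this difference and 1 lower, with a median of 0.63. Of all genes tested, 18.8% were called higher and 2533 genes lower. Ndufb5 differed by 1.17 ± 0.15 (adjusted p = 3.28e-07), Ndufs1 by 1.07 ± 0.14 (adjusted p = 5.15e-07), Ndufc1 by 1.14, Ndufv2 by 1.17 and Ndufs3 by 0.99, and Ndufaf2 showed the largest difference (1.66, adjusted p = 0.00940). For AAV_1E14 16 were higher and 1 lower (median 0.41), where 11.4% of all genes tested were called higher and 1211 genes lower. For AAV_1E14_2.5wk 18 were higher and 0 lower (median 0.41), where 10.7% were called higher and 1088 genes lower. Ndufb5 was at 150 ± 28.4 and 206 ± 14.5 CPM in WT RV and LV, at 197 ± 33.2 and 119 ± 16.8 in AAV_3E13, at 272 ± 36.3 and 195 ± 11.9 in AAV_1E14 and at 214 ± 35.3 and 183 ± 15.7 in AAV_1E14_2.5wk. Its mean was lower in the RV than in the LV in WT and higher in the RV in all vector groups. With the animal as a replicate block, 28, 20 and 17 genes were called in the 3 contrasts. Cell type markers moved in these contrasts as well. Cardiomyocyte markers were higher in 9, 7 and 5 of 12 and lower in 1 of 12 in each (medians 0.68, 0.47 and 0.41), and endothelial markers were lower in 5, 4 and 2 of 6 (−0.63, −0.57 and −0.46). The part of these markers in the result was not tested.

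Ndufa13 ran the other way, with −0.64 in AAV_3E13 (adjusted p = 0.0161), −0.91 in AAV_1E14 (adjusted p = 0.0107, or 0.0816 with all groups in 1 fit) and −0.70 in AAV_1E14_2.5wk (adjusted p = 0.128). The AAV_3E13 value did not pass with effective length in the fit (−0.38, adjusted p = 0.121). For cKO, edgeR called 0 of 43 (4 at an unadjusted p under 0.05) where 0.0272% of all genes tested (4 genes) were called in either direction, and with the animal as a replicate block it called 2. The median was 0.35, and the largest estimates were those of Ndufb4 (1.13, adjusted p = 0.279), Ndufa4l2 (0.86, adjusted p = 0.393) and Ndufa13 (−0.69, adjusted p = 0.531).

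Some members share sequence with other genes of the annotation, so their counts are uncertain: Ndufa11, Ndufa12, Ndufab1, Ndufb11, Ndufb4, Ndufs5 and Ndufs6 have copies named Ndufa11b, Ndufa12-ps, Ndufab1-ps, Ndufb11b, Ndufb4b and Ndufb4c, Ndufs5-ps and Ndufs6b.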

How the data were processed

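The authors trimmed reads with fastp, quantified them with Salmon 1.8.0 on GRCm39 and summarised them to genes with tximport. The deposited counts are the authors' estimated counts summed to genes without normalisation, and they were rounded to whole numbers here. The deposited TPM table holds TPM of the same runs, and the deposited length table the effective transcript length per gene and library, in bases, from the authors. The sources name both polyA RNA and a ribosomal depletion kit. The 37 mitochondrially encoded genes (16.6% to 40.2% of counts) and 1 row without a name (at most 0.00136%) were left out of library sizes. The mitochondrially encoded subunits were tested in a separate fit that kept the 37 genes in the library sizes.

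The quasi-likelihood F test of edgeR 4.0.16 (R 4.3.3, TMM, filterByExpr) was run on the groups compared, each ventricle alone, with Benjamini-Hochberg adjustment over all genes tested and a threshold of 0.05. "Called" means past that threshold. Genes that did not overlap between groups were counted among the Nduf genes alone, so those counts have no share over all genes beside them. A log2 fold change is of the first group named against the second. Alternatives used DESeq2 1.42.0 (size factors, or its test), limma 3.58.1 on log2(TPM + 1), no filter, effective length as offset, mitochondrial genes kept, all groups in 1 fit and leaving out each replicate of groups of up to 5, and animals WT_5819 and AAV_1E14_2.5wk_5814. RV and LV libraries are paired by the animal in the labels. Their deviations from group means correlated with a median r of 0.113 over 32 animals (−0.03 to 0.521, 18 over 0.1, 15313 genes). CPM used TMM-scaled library sizes, and 0.5 was added before the ratio to WT. Statistics were tested on simulated data. Replicates are separate animals.

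Genes, roles, lists and tests were chosen with earlier results of these data known. Named were the highest TPM of each role, the 5 called genes with the smallest p, the largest rise and fall, every gene called against the majority, Ndufa4, Ndufa4l2 and extra copies. Values per library are given for the 3 genes of different role with the smallest p in cKO RV, and Ndufa4l2. Ndufa13 across groups and the examples from other lists were chosen after their values were seen. Results of 1 gene of the set are not reported here individually, though counts and medians include it.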

Additional observations from a re-analysis of the deposited data

Results flagged for a closer look

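Single libraries were compared with the rest of their group over 50 sets of values (the median ratio of the Nduf genes and the CPM of the 4 genes shown by library), of which chance alone would mark about 1 in 20. In 1 set a library stood apart: Ndufs1 in AAV_1E14_2.5wk RV was at 770 CPM in AAV_1E14_2.5wk_5801, while the other 5 animals lay between 499.7 and 583.5 CPM so that its gap to them took 0.690 of the group's whole range, above Dixon's critical value for 6 samples.

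The other values that stood out are tested differences between the ventricles in the log2 fold change against WT (RV minus LV). For AAV_3E13 they were Ndufb5 at 1.17, Ndufs1 at 1.07, Ndufc1 at 1.14, Ndufv2 at 1.17, Ndufs3 at 0.99, Ndufaf2 at 1.66 and Ndufa13 at −0.64. For AAV_1E14 they were Ndufb5 at 0.92, Ndufs1 at 0.84, Ndufs3 at 0.76, Ndufab1 at 0.61, Ndufs5 at 0.77 and Ndufa13 at −0.91. For AAV_1E14_2.5wk they were Ndufs5 at 0.83, Ndufa10 at 0.69, Ndufb5 at 0.69, Ndufv2 at 0.76 and Ndufaf1, an early assembly factor, at 0.82. The 3 contrasts share the WT libraries.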

How the results depend on the processing

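Of 267 counts of called Nduf genes under an alternative, 240 stayed within 1.5 times the value reported. Of 1308 values of named genes, 0 changed direction and 70 no longer passed. The counts that moved further were these, and the cause was not tested. AAV_3E13 against WT in the RV gave 15 with limma and 1 with all groups in 1 fit, in place of 5. AAV_1E14_2.5wk against WT in the LV gave 1 without the filter, 7 with DESeq2, 0 with limma, 5 with the length offset, 0 with all groups in 1 fit and 7 without AAV_1E14_2.5wk_5814, in place of 3. AAV_3E13 against cKO in the LV gave 35 with all groups in 1 fit and 11 to 27 over the replicates left out, in place of 21. AAV_1E14 against AAV_3E13 in the RV gave 3 with limma, 4 with all groups in 1 fit and 5 to 12 without single replicates, in place of 12, and in the LV 20 to 32 in place of 32. AAV_1E14_2.5wk against AAV_1E14 in the RV gave 11 with DESeq2, 2 with all groups in 1 fit and 2 to 8 without single replicates, in place of 5. With all groups in 1 fit, the ventricle contrasts of AAV_1E14 and AAV_1E14_2.5wk gave 10 each in place of 17 and 18. With the replicate block the cKO contrast gave 2 in place of 0, and the block changed no other count by over 1.5 times. Precision is limited by the 4 animals of cKO and by the low counts of genes such as Ndufaf2 and Ndufa4l2.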
